A study of Homo sapiens with 12 samples.

Results

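Gene expression was compared between 2 sublines of HCC827, a human lung adenocarcinoma cell line with a mutant, activated EGFR, grown without the study's drugs. Per the labels, EGFR has a deletion in HCC827-Del (Del below), while HCC827-Del-TM (Del-TM below) has that deletion plus a substitution in EGFR. The comparison took the arrays labelled as controls, 3 for Del and 3 for Del-TM, which were 6 of the 12 arrays of the study. Control cells received DMSO, the solvent of the drugs, for 72 h. The other 6 arrays held the same sublines after 72 h with 2.5 µM decitabine, which inhibits DNA methyltransferases, and 1 µM vorinostat, which inhibits histone deacetylases. All cells grew in RPMI-1640 medium with 10% fetal bovine serum. The arrays of a group were biological replicates, per the labels. The labels do not say how Del-TM was obtained or whether it is 1 clone, so effects of the substitution and of the subline's history cannot be told apart.

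EGFR is a receptor tyrosine kinase that signals through the RAS-MAPK, PI3K and STAT3 pathways, and mutant EGFR drives the growth of a group of lung adenocarcinomas. Airway epithelial cells also answer to cytokines: NF-kB switches on chemokines and acute-phase proteins, interferons switch on antiviral genes, and low oxygen acts through HIF1A on glycolysis and vessel growth. The gene lists below follow these pathways and the lineages from which such cells come.

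Intensities are given on a log2 scale after background correction and normalization, for the probe tested for each gene, and a log2 difference is Del-TM minus Del, so that negative values are lower in Del-TM. Of 11808 genes tested, 4310 (36.5%) differed between the untreated sublines (adjusted p under 0.05): 1914 (16.2%) were higher in Del-TM and 2396 (20.3%) were lower. Most of these differences were small, since 2639 of the 4310 were under 0.5 on the log2 scale. A difference of at least 1 on the log2 scale was found for 434 genes, 255 higher and 179 lower. In 5578 genes (47.2%) the 3 values of 1 subline did not overlap with those of the other. The median over all genes was -0.0261. Over all genes, replicate arrays correlated at 0.995 to 0.996 (Pearson's r of the log2 values), and arrays of different sublines at 0.971 to 0.972. Between 17270 and 18055 probes were detected on the Del arrays, and 16527 to 17545 on the Del-TM arrays. With 3 arrays a group, the number of arrays limits the precision, and the median standard error of a log2 difference was 0.0954. Bead-array intensities do not report which EGFR alleles a subline carries, so the genotypes could not be checked.

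Both sublines carried the markers of an epithelial adenocarcinoma. All 18 epithelial marker genes were detected on all 6 arrays, with a mean log2 intensity of 9.89 to 9.98 on the Del arrays and 9.85 to 9.90 on the Del-TM arrays. CDH1, the epithelial cadherin, read 11.82, 12.05 and 11.97 in Del and 12.00, 11.98 and 12.00 in Del-TM. Others of the 18 did differ, with 4 higher and 7 lower in Del-TM, a share of 61.1% beside 36.5% over all genes. In each direction 1 of them differed by at least 1. Of 27 blood cell markers with a probe, 10 could be tested, and PTPRC, the leukocyte phosphatase CD45, was below detection on all 12 arrays. The mean level of those 10 genes ran from 6.22 to 6.31 in Del and from 6.21 to 6.31 in Del-TM. Of the 10, 5 were detected on all 6 untreated arrays (CD68, LILRB1, CD79A, CD79B and CSF1R). Another 3 were undetected on all 6 (TYROBP, MPO and FCER1G), and 2 were detected on only some. CD68, a lysosomal protein of macrophages that other cells also make, read 10.46, 10.52 and 10.55 in Del and 10.61, 10.68 and 10.54 in Del-TM. In Del-TM, 2 of the 10 were higher (1 without Del replicate 2, Del replicate 3 or Del-TM replicate 3) and 2 lower (1 without Del-TM replicate 2). Of 21 fibroblast, endothelial and muscle markers, 7 were tested, and their mean ran from 4.91 to 4.96 in Del and from 4.92 to 5.09 in Del-TM. Of these 7, 4 were undetected on all 6 untreated arrays. Neuronal and neuroendocrine markers could be tested for 8 of 23, and 5 were detected on all 6 arrays. Their mean ran from 6.86 to 6.94 in Del and from 6.72 to 6.84 in Del-TM, with 1 higher and 3 lower in Del-TM. In RNA from whole cultures, fewer cells that express a gene and less RNA per cell cannot be told apart.

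The leading differences towards Del-TM were genes of secreted inflammatory proteins. Chemokines of the ELR group, which attract neutrophils through CXCR1 and CXCR2, were higher in Del-TM for 5 of the 6 tested, with a list median of 3.84 (2.54 without background correction). CXCL5 read 6.00, 6.13 and 6.06 on the 3 Del arrays and 10.79, 10.78 and 10.55 on the 3 Del-TM arrays. Its log2 difference was 4.64 (SE 0.0799, adjusted p = 9.22e-14). CXCL8, also known as interleukin-8, read 8.57, 8.96 and 8.66 in Del and 12.49, 12.36 and 12.48 in Del-TM, a difference of 3.72 (SE 0.0978, adjusted p = 3.19e-12). For both genes the lowest Del-TM array lay above the highest Del array by more than the range of either group. CXCL1 read 5.75, 5.67 and 5.72 in Del and 10.11, 9.57 and 9.70 in Del-TM. CXCL2 read 6.10, 6.06 and 5.88 in Del and 8.79, 8.72 and 9.06 in Del-TM. CXCL6 read 5.01, 4.28 and 4.47 in Del, where only some arrays detected it, and 8.66, 8.39 and 8.59 in Del-TM, with another probe at 2.35. PPBP, the platelet member of the group, differed by 0.19 with an adjusted p of 0.326. CXCL1 and CXCL2 are near-identical in sequence, so their probes may read each other's transcripts.

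The ELR genes lie next to each other on chromosome 4, in the order CXCL8, CXCL6, CXCL1, PPBP, CXCL5 and CXCL2 among the genes tested, followed by the EGFR ligands EREG and BTC. The letters GGANNTTCC, the core of the site that NF-kB binds, were searched on both strands in the 250 bases before each gene's start (RefSeq, GRCh38.p14). They were present in 5 of the 6 ELR promoters, in 7 of 27 promoters of the NF-kB list (25.9%) and in 3.88% of 27305 promoters. The windows below show the match in the 5 genes that differed and in LCN2, with the match in capitals. Each is printed in the direction of its gene, from chr4:73740439-73740518 (CXCL8, + strand), chr4:73836548-73836627 (CXCL6, + strand), chr4:73869263-73869342 (CXCL1, + strand), chr4:73998728-73998807 (CXCL5, - strand), chr4:74099246-74099325 (CXCL2, - strand) and chr9:128149253-128149332 (LCN2, + strand).
CXCL8: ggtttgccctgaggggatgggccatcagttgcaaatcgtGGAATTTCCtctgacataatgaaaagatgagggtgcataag
CXCL6: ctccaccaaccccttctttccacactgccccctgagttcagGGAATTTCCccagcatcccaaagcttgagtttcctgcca
CXCL1: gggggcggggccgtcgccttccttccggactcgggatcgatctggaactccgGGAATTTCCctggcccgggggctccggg
CXCL5: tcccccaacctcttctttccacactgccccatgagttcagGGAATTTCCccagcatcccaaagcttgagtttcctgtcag
CXCL2: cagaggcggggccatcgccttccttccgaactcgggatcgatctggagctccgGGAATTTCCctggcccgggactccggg
LCN2: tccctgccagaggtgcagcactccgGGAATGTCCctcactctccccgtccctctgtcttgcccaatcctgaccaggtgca
The 5 chemokine windows carry the match 77 to 91 bases before the start, and the LCN2 match begins 175 bases before the start. Aligned without gaps at the best offset, the printed windows of CXCL5 and CXCL6 were identical at 94.9% of 79 bases and those of CXCL1 and CXCL2 at 87.3% of 79, while the other chemokine pairs were identical at 27.8% to 44.8% of 66 to 73 bases. A match describes the letters only, and binding was not measured.

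Of 9 other chemokines tested, 3 were higher and 2 lower, with a median of 0.0051. The median was 0.346 to 0.35 over 7 genes on leaving out any 1 treated Del array, and 0.419 over the 5 detected on all 12 arrays. CCL20, which attracts cells with the receptor CCR6, read 6.90, 7.19 and 6.98 in Del and 12.46, 12.36 and 12.67 in Del-TM. Its difference of 5.48 was the largest in this direction among genes detected on all 6 arrays. CX3CL1, a membrane-bound chemokine, was higher by 0.74. CCL26, which attracts eosinophils, was lower at -1.87, and CXCL10, which interferons switch on, was below detection on all Del-TM arrays and at least 1.3-fold higher in Del (adjusted p = 6.3e-05). Such a bound sets the mean of the subline that detected the gene against the other subline's weakest detected probe, taken array by array, or against the gene's own signal there if that was stronger.

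**Figure D1:**
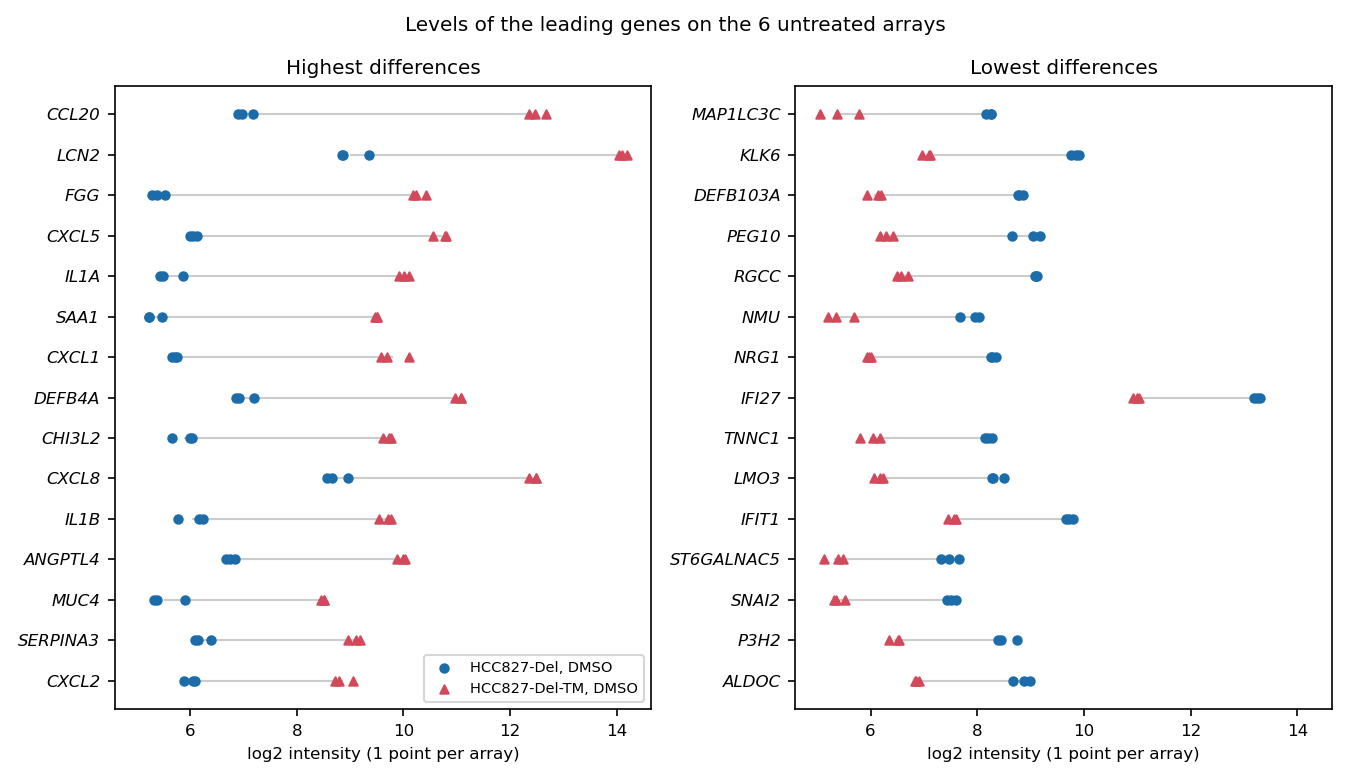
Log2 intensity of the 15 genes with the highest and the 15 with the lowest difference among genes detected on all 6 untreated arrays, with 1 point per array and a grey line between the means of the sublines. The 3 Del arrays (circles) and the 3 Del-TM arrays (triangles) do not overlap for any of the 30 genes, which were chosen by the size of this same difference. Over all genes tested, 47.2% did not overlap. CCL20 has the widest gap, from 7.19 to 12.36.

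The cytokines of the interleukin-1 family split by gene. Of 18 members and receptors tested, 7 were higher and 5 lower in Del-TM, and the median was -0.0023. IL1A read 5.50, 5.87 and 5.43 in Del and 10.01, 10.11 and 9.92 in Del-TM. IL1B read 6.16, 6.24 and 5.78 in Del and 9.77, 9.71 and 9.55 in Del-TM, a difference of 3.62 (SE 0.104, adjusted p = 9.08e-12). These agonists of the IL-1 receptor, neighbours on chromosome 2, were the only members higher by at least 1. IL1RAP, the signalling partner of that receptor, was higher by 0.98 (0.384 by its other probe), CASP4 by 0.66 and IL36G by 0.73. IL37, which dampens inflammation, was lower at -0.59, and NLRP3, the inflammasome sensor, at -0.68, with other NLRP3 probes at -0.797 and -0.0308. IL18 read 11.87, 12.00 and 11.81 in Del and 11.86, 11.72 and 11.68 in Del-TM, and did not pass the test (adjusted p = 0.262). Among other cytokines, IL6 read 7.09, 7.11 and 7.12 in Del and 8.67, 8.50 and 8.76 in Del-TM, with a difference of 1.54 (SE 0.0911, adjusted p = 1.36e-08). LIF, a cytokine of the IL-6 family, was higher by 0.77, and IL15 by 0.65. PDGFB and TGFB2, growth factors for mesenchymal cells, were lower at -1.06 and -0.64.

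Genes of NF-kB and its feedback were higher in Del-TM for 17 of 31 tested and lower for 2, with a median of 0.426 (0.389 with the gene undetected in 1 subline at its bound, 0.205 without background correction). NFKBIA, the inhibitor that NF-kB induces and that returns it to the cytoplasm, read 11.48, 11.52 and 11.57 in Del and 12.83, 12.70 and 12.70 in Del-TM. SOD2, the mitochondrial superoxide dismutase, was higher by 2.63 (SE 0.113, adjusted p = 5.58e-10), though 1 of its other probes gave 0.79. ZC3H12A, an RNase that cuts cytokine transcripts, was higher by 2.05, and ICAM1, the leukocyte adhesion molecule, by 1.53. NFKB1 and NFKB2, which encode the precursor subunits and were named after their values were seen, were higher by 0.66 and 0.69. RELA, the transactivating subunit, read 6.98, 7.08 and 6.99 in Del and 7.14, 7.00 and 6.95 in Del-TM (adjusted p = 0.912). The members lower in Del-TM, named after their values were seen, were NFKBIB (-0.76) and the kinase CHUK (-0.26). The CHUK call was lost without Del replicate 1 or 3 (adjusted p = 0.103 and 0.166) and without Del-TM replicate 1, 2 or 3 (0.117, 0.0568 and 0.0811). Without the 3 members on chromosome 4, 15 of 28 were higher and 2 lower, with a median of 0.408.

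In the JAK-STAT3 list 13 of 27 genes were higher and 2 lower, with a median of 0.268 and no member beyond 1. Median scaling gave 8 higher, and 1 was lower without Del replicate 1, Del-TM replicate 1 or Del-TM replicate 3. CEBPD and CEBPB, transcription factors of the acute-phase response, read 10.57, 10.57 and 10.65 and 10.78, 10.96 and 10.94 in Del against 11.57, 11.61 and 11.45 and 11.70, 11.84 and 11.56 in Del-TM. OSMR, the oncostatin M receptor, was higher by 0.71 and SOCS3, the feedback inhibitor, by 0.49. The other SOCS3 probe gave 0.0614, and the call was lost with the mean over kept probes (0.275, adjusted p = 0.0955). IL6ST, the shared receptor chain gp130, differed by -0.14 (adjusted p = 0.265).

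Acute-phase and complement genes were higher in Del-TM for 16 of 19 tested and lower for none, with a median of 1.87. The median was 0.99 without background correction and 0.358 over 32 genes without the detection filter. These proteins are made mainly by the liver and also by inflamed epithelia. LCN2, an iron-sequestering protein, read 8.87, 9.35 and 8.85 in Del and 14.19, 14.09 and 14.04 in Del-TM. The fibrinogen chain genes, adjacent on chromosome 4, were all higher. FGG read 5.53, 5.39 and 5.28 in Del and 10.23, 10.17 and 10.42 in Del-TM, with another probe at 2.84. FGB read 7.71, 7.53 and 7.62 in Del and 10.21, 10.38 and 10.58 in Del-TM. FGA was detected on only some Del arrays and was higher by 2.48, with its other probes at 0.13, 0.97 and 2.33. The fibrinogen differences were larger than the chromosome's median, which is given below. SAA4 was higher by 3.73 and SAA1 by 4.18, although 1 of the 3 SAA1 probes gave 0.48, and probes of the near-identical SAA genes may read each other. SERPINA3, an inhibitor of neutrophil proteases, read 6.15, 6.39 and 6.10 in Del and 9.19, 9.12 and 8.97 in Del-TM. CP, the copper carrier ceruloplasmin, was undetected in Del and at least 6.07-fold higher in Del-TM (adjusted p = 1.82e-10). CFB, C1S and C1R of the complement cascade, named after their values were seen, were higher by 2.13, 1.87 and 1.85. CFI, which cleaves complement, differed by 0.10 (adjusted p = 0.44). Without chromosome 4, 13 of 15 members were higher.

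Antimicrobial genes of epithelia were higher for 7 of 10 and lower for 1, with a median of 1.43 (1.23 with the genes undetected in Del at their bounds). It was 0.0915 over 25 genes without the detection filter. LCN2 belongs to this list and to the acute-phase list. DEFB4A, beta-defensin 2, read 6.92, 7.20 and 6.87 in Del and 11.07, 10.97 and 11.07 in Del-TM. DEFB103A, beta-defensin 3, went the other way, at 8.77, 8.78 and 8.86 in Del and 6.14, 5.94 and 6.19 in Del-TM, a difference of -2.72 (SE 0.0886, adjusted p = 3.01e-11). These defensin genes lie in a repeated cluster on chromosome 8, and their copies cannot be told apart by these probes. DEFB1, the defensin that epithelia make without induction, was higher by 3.96. SLPI and PI3, inhibitors of neutrophil elastase, were higher by 1.79 and at least 4.83-fold. LTF, the milk and granule protein lactoferrin, differed by -0.06 (adjusted p = 0.815).

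S100 genes differed member by member. Of 16 tested, 7 were higher and 3 lower, with a median of 0.111 (0.351 to 0.353 over 14 genes on leaving out any 1 treated Del-TM array). S100A9, the partner of S100A8 in calprotectin, was undetected on the Del arrays, where it read 4.98, 4.88 and 4.90, and read 13.09, 13.03 and 13.09 on the Del-TM arrays. S100A8 read 4.31, 4.59 and 4.31 in Del, also undetected, and 8.66, 8.66 and 8.87 in Del-TM. The bounds were at least 276-fold for S100A9 (adjusted p = 1.61e-16), 13.6-fold for S100A8 and 4.98-fold for their neighbour S100A7, psoriasin. S100P was higher by 1.78, and S100A14 and S100A16 by 1.08 and 0.89. S100A10 and S100A11, partners of annexins, differed by 0.10 and 0.07 (adjusted p = 0.466 and 0.496). S100A4 was lower at -0.50. Calprotectin is also an abundant protein of neutrophils. Of the blood cell markers given above, 5 of the 10 tested were detected on all 6 arrays and 3 on none, and their mean level overlapped between the sublines. Their part in these values was not tested.

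Clade B serpins, protease inhibitors of squamous epithelia, were higher for 6 of 7, with a median of 0.676. The median was 0.274 without background correction and 0.26 over 11 genes without the detection filter. It was 1.4 over 6 genes when only the 6 untreated arrays were used. SERPINB4, SERPINB3 and SERPINB7, neighbours on chromosome 18, were undetected in Del and at least 4.68-fold, 4.31-fold and 3.71-fold higher in Del-TM. SERPINB3 and SERPINB4 are near-identical and their signals may be shared, and another SERPINB3 probe gave 0.047. SERPINB5, maspin, was higher by 0.37, a call lost with median scaling (0.299, adjusted p = 0.068). Other myeloid or secreted proteins led by size as well: CHI3L2, a chitinase-like protein, read 5.67, 6.04 and 6.00 in Del and 9.77, 9.61 and 9.73 in Del-TM. TREM1, a receptor that amplifies inflammation, was undetected in Del and at least 4.47-fold higher.

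**Figure D2:**
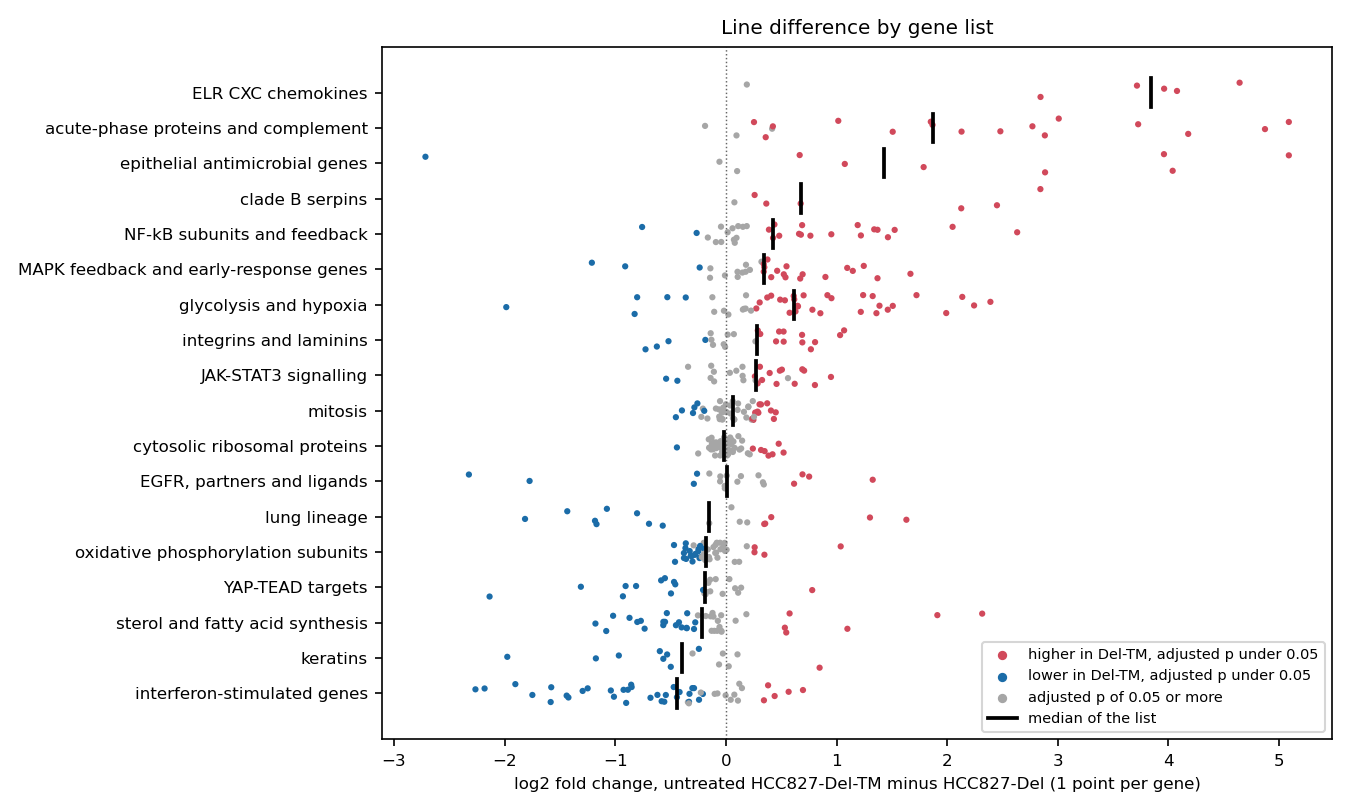
Log2 difference of every tested gene in 18 gene lists, with 1 point per gene coloured by its call and a black bar at the median of each list. The ELR chemokines and the acute-phase genes lie farthest right, with medians of 3.84 and 1.87, and the interferon-stimulated genes farthest left, with a median of -0.442.

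Interferon-stimulated genes ran against this pattern. Of 47 tested, 31 were lower in Del-TM and 5 higher, with a median of -0.442, and 12 were lower by at least 1. IFI27, a mitochondrial protein induced by type I interferon, read 13.18, 13.30 and 13.24 in Del and 10.99, 10.91 and 11.03 in Del-TM. Its difference was -2.26 (SE 0.078, adjusted p = 5.76e-11). IFIT1, which binds viral RNA, read 9.66, 9.72 and 9.79 in Del and 7.56, 7.46 and 7.60 in Del-TM. ISG15, a ubiquitin-like modifier, read 12.11, 12.28 and 12.33 in Del and 10.72, 10.98 and 10.71 in Del-TM. In each of these genes, which were named for the size of their difference, all Del arrays lay above all Del-TM arrays. The dynamin-like antiviral GTPases MX1 and MX2 were lower at -1.58 and -1.42, and OAS2, a sensor that activates RNase L, at -1.75, with its other probes from -1.23 to -0.72. EPSTI1 was lower at -1.90 and IFIT3 at -1.58. The sensor of double-stranded RNA IFIH1 was lower at -0.42.

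The members that did not follow were also counted. Those higher in Del-TM, named after their values were seen, were GBP2 (0.70), ISG20 (0.57), IFI16 (0.44), IRF1 (0.38) and IFITM1 (0.34). IRF1 and GBP2 answer to interferon-gamma and, for IRF1, to NF-kB. UBE2L6 and PLSCR1 differed by 0.04 and -0.08 and did not pass the test. Genes of MHC class I and peptide loading, which interferons also raise, were higher for 9 of 26 and lower for 3. That share of 46.2% stands beside 36.5% over all genes. B2M, the light chain of class I, read 13.36, 13.13 and 13.19 in Del and 13.29, 13.22 and 13.24 in Del-TM. CD47, a signal that restrains macrophages, was higher by 0.93 and HLA-F by 0.66, with another HLA-F probe at 0.229 and shared sequence among HLA genes. Class II genes were higher for 2 of 14 (1 with median scaling) and lower for 2, a share of 28.6% that lay below the share over all genes.

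The letters GAAANNGAAA, the core of the interferon-stimulated response element, were found on either strand in 23 of 37 promoters of this list (62.2%), against 3.07% of all 27305 promoters and 2.4% of those of tested genes. Among members lower in Del-TM, 18 of 25 promoters held a match, and among members higher, 2 of 4. The windows of the 4 genes below, all lower in Del-TM, show its arrangement, with matches in capitals, from chr14:94110586-94110665 (IFI27, + strand), chr10:89392473-89392552 (IFIT1, + strand), chr1:1013347-1013426 (ISG15, + strand) and chr10:89327817-89327896 (IFIT3, + strand).
IFI27: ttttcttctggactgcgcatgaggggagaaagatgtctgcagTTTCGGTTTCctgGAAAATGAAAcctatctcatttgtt
IFIT1: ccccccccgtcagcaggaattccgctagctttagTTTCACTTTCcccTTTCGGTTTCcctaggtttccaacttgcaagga
ISG15: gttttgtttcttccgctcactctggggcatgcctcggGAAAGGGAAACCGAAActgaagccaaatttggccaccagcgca
IFIT3: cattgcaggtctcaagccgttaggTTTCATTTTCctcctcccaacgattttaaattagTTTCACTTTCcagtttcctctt
Each window holds a pair of matches, overlapping in ISG15, where they begin 113 and 107 bases before the start.

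Genes of glycolysis and hypoxia were higher in Del-TM for 29 of 43 tested and lower for 5, with a median of 0.613, and 12 were higher by at least 1. ADM, the vessel-dilating peptide adrenomedullin, read 8.87, 8.79 and 8.78 in Del and 11.13, 11.22 and 11.26 in Del-TM. VEGFA, which drives vessel growth, read 7.38, 7.16 and 7.18 in Del and 9.47, 9.40 and 9.26 in Del-TM. NDRG1 was higher by 2.24 (SE 0.0846, adjusted p = 1.37e-10). ANGPTL4, an inhibitor of lipoprotein lipase that hypoxia also induces, was higher by 3.21, although its other probes gave 0.41 and 0.62. The regulatory kinases of glycolysis PFKFB4 and PFKFB3 were higher by 1.72 and 1.51, and the oxidase ERO1A by 1.46. Enzymes of the pathway differed less: PGK1, named after its values were seen, read 12.02, 12.09 and 11.99 in Del and 13.21, 13.28 and 13.27 in Del-TM, and LDHA, likewise, was higher by 0.49. ENO1 and GAPDH differed by 0.18 and 0.16 and did not pass the test, although both other GAPDH probes did (0.214 and 0.26), as did ENO1 under 3 of the alternatives (adjusted p from 0.0214 to 0.041) and GAPDH under 4 (0.0176 to 0.0355). ALDOC, the brain form of aldolase, was lower at -1.98. FBP1, which runs the pathway backwards, was undetected in Del and at least 3.6-fold higher in Del-TM. STC1, a glycoprotein hormone that hypoxia can induce, was at least 6.77-fold higher. Without the member on chromosome 4, 28 of 42 were higher.

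The letters ACGTG, the core of the hypoxia response element, occurred on either strand in 15 of 38 promoters of this list (39.5%). They occurred in 12 of 25 of the members higher in Del-TM and in 1 of 4 of those lower. The share was 18.7% over all promoters and 23.6% over those of tested genes. Other lists varied: 16 of 39 mitosis promoters (41.0%) held the letters, as did 18 of 58 of ribosomal protein genes (31.0%). Among interferon-stimulated genes it was 8 of 37 (21.6%). A share of this size was therefore not particular to this list. The windows of PGK1, ANKRD37 and BNIP3, targets of HIF1A whose differences were 1.22, 1.24 and 1.36, show the matches in capitals, from chrX:78104018-78104097 (PGK1, + strand), chr4:185396641-185396720 (ANKRD37, + strand) and chr10:131982014-131982093 (BNIP3, - strand). ANKRD37 and BNIP3 were also named after their values were seen.
PGK1: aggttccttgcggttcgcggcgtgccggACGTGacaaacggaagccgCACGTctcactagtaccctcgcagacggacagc
ANKRD37: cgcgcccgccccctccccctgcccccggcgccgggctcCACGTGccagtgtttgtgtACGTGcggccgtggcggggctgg
BNIP3: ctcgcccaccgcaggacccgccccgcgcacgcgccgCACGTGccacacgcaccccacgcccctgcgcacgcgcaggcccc
PGK1 holds the letters once on each strand, and in ANKRD37 and BNIP3 they overlap their own reverse complement.

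**Figure D3:**
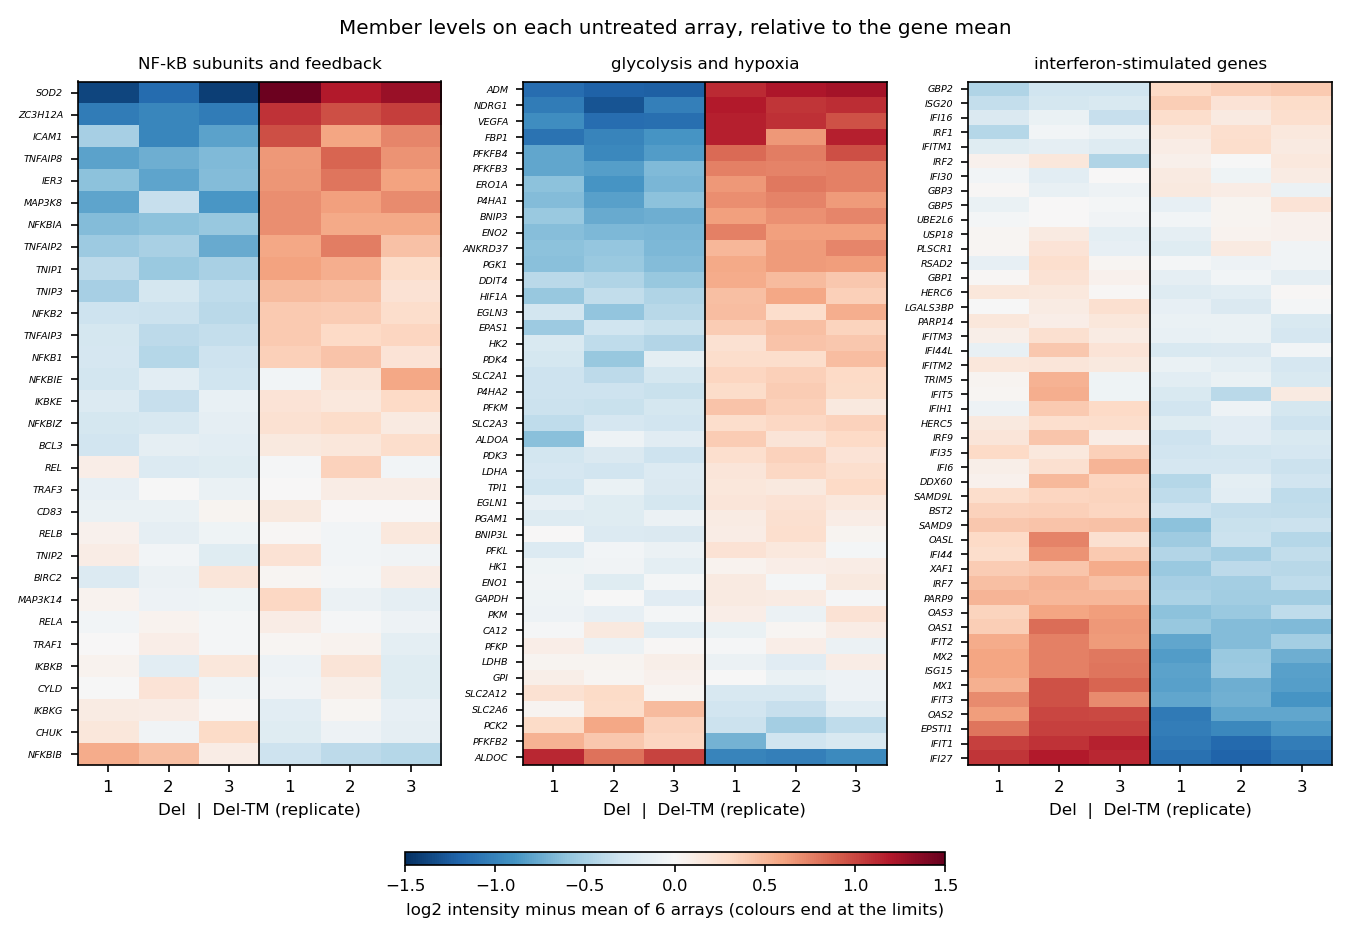
Levels of the NF-kB, glycolysis and hypoxia, and interferon-stimulated members on each of the 6 untreated arrays, as log2 intensity minus the mean of the 6, with genes ordered by their difference and arrays 1 to 3 of Del left of the line and 1 to 3 of Del-TM right of it. Most rows change colour at the line between the sublines, in the first 2 panels towards Del-TM and in the third towards Del.

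Biosynthetic and respiratory genes were lower on balance. Of 40 genes of sterol and fatty acid synthesis, 19 were lower in Del-TM and 6 higher, with a median of -0.217 (-0.187 with the gene undetected in 1 subline at its bound). The share called was 62.5%, beside 36.5% over all genes. HMGCS1, an early enzyme of cholesterol synthesis, read 10.36, 10.12 and 10.29 in Del and 9.05, 9.17 and 9.02 in Del-TM, a difference of -1.18 (SE 0.0769, adjusted p = 3.88e-08). INSIG1, which holds the sterol sensor in the endoplasmic reticulum, was lower at -1.08, LSS, lanosterol synthase, at -1.02 and SQLE, squalene epoxidase, at -0.87. The members higher by at least 1 do other work in lipid handling: FABP6 binds bile acids (2.32), ACSL1 activates fatty acids (1.91) and ELOVL6 lengthens them (1.10). ACSL1 and ELOVL6 lie on chromosome 4. Of 50 subunits of oxidative phosphorylation, 19 were lower and 4 higher, with a median of -0.178. Their share called was 46%, nearer the 36.5% over all genes, of which 20.3% were lower. COX5A read 11.96, 12.02 and 12.03 in Del and 11.53, 11.55 and 11.52 in Del-TM. SDHA, on the short arm of chromosome 5, was higher by 1.04 while its partners SDHC and SDHD were lower at -0.38 and -0.37, though the SDHD call was lost without Del replicate 2 or Del-TM replicate 2 (adjusted p = 0.0617 and 0.0665). The other SDHC probe gave 0.116, and the SDHC call was lost with the mean over kept probes (-0.131, adjusted p = 0.175). Without Del replicate 3, 12 of the 50 subunits were lower, beside 2047 of 11762 genes tested. With median scaling in place of quantile normalization 12 were also lower, beside 2227 of 11808. Of 35 genes of the stress response of translation and the endoplasmic reticulum, 9 were higher and 12 lower. The serine and asparagine enzymes PSAT1 and ASNS were lower at -1.26 and -0.86, while the chaperone HSP90B1 was higher by 0.68. ATF4 itself differed by -0.01 (adjusted p = 0.962), while 1 of its other probes was higher (0.477, adjusted p = 0.0121). Ribosomal protein genes served as a comparison, with 7 of 68 higher, 1 lower and a median of -0.0141 (4 higher with median scaling, and 2 lower without Del replicate 1).

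EGFR transcript level did not separate the sublines by the probe tested, which read 12.77, 12.67 and 12.67 in Del and 12.72, 12.65 and 12.71 in Del-TM, a difference of -0.01 (adjusted p = 0.924). Its 3 other kept probes gave differences of 0.604, 0.374 and 0.000339 (adjusted p = 0.00083, 0.0435 and 0.999). The mean over the kept probes gave a difference of 0.242 (adjusted p = 0.00687), a call that the tested probe did not give. ERBB2 and ERBB3, the partners of EGFR, differed by -0.05 and -0.01 and did not pass the test, although another ERBB3 probe did (0.393, adjusted p = 0.0229). The ligands were divided. EREG, epiregulin, read 6.86, 6.92 and 6.74 in Del and 8.17, 8.02 and 8.31 in Del-TM. BTC and TGFA were higher by 0.75 and 0.69. HBEGF was lower at -1.77 and NRG1, the ligand of ERBB3, read 8.27, 8.26 and 8.36 in Del and 6.01, 5.94 and 5.98 in Del-TM, a difference of -2.32 (SE 0.084, adjusted p = 8.94e-11), with another probe at -1.35. EREG and BTC lie beside the chemokines on chromosome 4. ERRFI1, the inhibitor that EGFR signalling induces, was higher by 0.62.

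Feedback and early-response genes of the MAPK pathway were higher for 17 of 30 and lower for 3, with a median of 0.345. DUSP6, the phosphatase that switches off ERK and reports its activity, read 8.60, 8.86 and 8.70 in Del and 10.33, 10.40 and 10.44 in Del-TM. SPRY1 and SPRY4, inhibitors of receptor signalling, were higher by 1.25 and 0.90, and FOS and JUNB by 1.10 and 1.15. EGR1, JUN and CCND1 differed by 0.11, -0.14 and -0.01 and did not pass the test, although JUN passed without Del-TM replicate 1 (-0.239, adjusted p = 0.0386). DUSP10, a phosphatase of JNK and p38, was lower at -1.21.

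Kinases and other genes tied to resistance against EGFR inhibitors were higher for 8 of 29 and lower for 7. The share called was 51.7%, beside 36.5% over all genes. MET, a receptor whose amplification can replace EGFR, read 8.99, 9.20 and 9.09 in Del and 9.49, 9.67 and 9.50 in Del-TM, a difference of 0.46 (SE 0.125, adjusted p = 0.0105). AXL read 5.42, 5.54 and 5.27 in Del and 5.37, 5.13 and 5.18 in Del-TM (adjusted p = 0.144), while its other kept probe was lower (-0.585, adjusted p = 0.00488). GAS6, the ligand of AXL and MERTK, was undetected in Del-TM and at least 2.33-fold higher in Del, and MERTK was lower in Del-TM at -0.97. FGF9 read 7.55, 7.51 and 7.52 in Del and 5.83, 5.77 and 5.79 in Del-TM. KIT, on chromosome 4, was undetected in Del and at least 1.7-fold higher in Del-TM. IGFBP2 and IGFBP3, carriers of insulin-like growth factors, were higher by 1.73 and 0.78, and IGFBP6 was lower at -1.57. BMF, a pro-apoptotic BH3 protein, was higher by 1.19, with its other probes at 0.165 and 0.955.

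Genes of the lung lineage differed in both directions. NKX2-1, the master factor of the lung epithelium, read 9.90, 9.71 and 9.86 in Del and 9.25, 9.26 and 9.26 in Del-TM. Surfactant genes split: SFTPB was higher by 1.63, SFTPA1 lower at -1.08, and SFTPD undetected in Del-TM and at least 1.63-fold higher in Del. SOX2, a factor of the basal and conducting airway, was lower at -1.82, HOPX at -1.17 and CAV1, which is typical of flat alveolar cells, at -1.43. Of 17 lung lineage genes, 5 were higher and 8 lower. Keratins were lower for 8 of 14 and higher for 1, with a median of -0.4 (-0.0634 over 22 genes without the detection filter). KRT7, a keratin of glandular epithelia, read 11.89, 11.81 and 11.84 in Del and 10.66, 10.66 and 10.69 in Del-TM. KRT4 was lower at -1.98 and KRT16, which wounded epithelium makes, higher by 0.85.

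Secretory genes were as divided, with 7 of 16 mucins, CEACAMs and related genes higher and 6 lower. AGR2, a disulfide isomerase needed for mucin folding, read 8.78, 8.86 and 8.79 in Del and 10.95, 10.88 and 11.08 in Del-TM. MUC4 was higher by 2.96, although its other probe gave 0.037, and the factor SPDEF by 1.22. MUC13 was lower at -0.83, and MUC21 was undetected in Del-TM and at least 2.01-fold higher in Del. KLK6, a secreted serine protease, read 9.91, 9.76 and 9.85 in Del and 6.97, 7.09 and 7.12 in Del-TM, and its neighbour KLK8 was undetected in Del-TM. SPINK1, a trypsin inhibitor, was higher by 2.35, SLCO4A1, an organic anion carrier, by 2.72 and SERPINE2, an inhibitor of thrombin, by 1.78. CTSH, a lysosomal protease of alveolar cells, was lower at -1.78. CYP24A1, which degrades vitamin D, was detected on only some Del arrays and was higher by 3.58, as was CYP27B1, which activates it, by at least 1.87-fold. CES1, a drug-hydrolysing esterase, was undetected in Del and at least 9.47-fold higher, although another probe gave 0.46.

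Genes of mesenchymal cells moved in both directions, 4 of 19 higher and 7 lower. VIM, vimentin, read 8.15, 8.28 and 8.14 in Del and 8.19, 8.16 and 8.15 in Del-TM. SNAI2, a repressor of epithelial genes, read 7.44, 7.60 and 7.50 in Del and 5.36, 5.53 and 5.32 in Del-TM, a difference of -2.11 (SE 0.0923, adjusted p = 6.45e-10). TNC, a matrix protein, was higher by 2.09, and TGM2, a crosslinking enzyme, by 1.95, although the other TGM2 probes gave 0.295 and 1.62. Among 24 integrins and laminins, 12 were higher and 4 lower, led by ITGA1 (1.07) and ITGA5 (1.03), whereas ITGB2 was lower at -0.73. Junction genes were lower for 10 of 25 and higher for 4, and 2 were higher without Del-TM replicate 2 or with median scaling. TJP1, a tight junction scaffold, was lower at -0.76, and JUP, plakoglobin, at -0.52, although the other JUP probes gave -0.151 and -0.355 and were not called. Targets of YAP and TEAD, the effectors of the Hippo pathway, were lower for 11 of 24 and higher for 1, with a median of -0.189. ANKRD1, CCN1 and CCN2, the usual reporters of the pathway, were lower at -2.14, -1.31 and -0.93. AMOT, which holds YAP in the cytoplasm, was undetected in Del-TM and at least 3.91-fold higher in Del.

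The remaining genes at the low end had varied roles. DKK3, a secreted protein related to Wnt inhibitors, and FST, which binds activin, were undetected in Del-TM, with bounds of at least 5.46-fold for DKK3 and 3.8-fold for FST towards Del. NR2F1, a nuclear receptor, was at least 2.78-fold higher in Del and HOXD1 at least 2.31-fold. MAP1LC3C, of the autophagy machinery, read 8.26, 8.16 and 8.25 in Del and 5.79, 5.37 and 5.05 in Del-TM. RGCC was lower at -2.51 and NMU, a neuropeptide, at -2.47. PEG10, an imprinted gene derived from a retrotransposon, was lower at -2.66 and LMO3, a transcriptional cofactor, at -2.20.

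Mitosis genes differed about as often as genes as a whole. Of 47, 11 were higher and 6 lower, a share of 36.2% beside 36.5% over all genes. Their median was 0.0624 and none was beyond 1. Their median absolute difference was 0.196, beside 0.189 over all genes. Median scaling gave 4 higher, leaving out Del-TM replicate 2 gave 7 higher, and leaving out Del replicate 1, Del replicate 3 or Del-TM replicate 1 gave 3 lower. TOP2A read 12.15, 12.23 and 12.20 in Del and 12.26, 12.38 and 12.56 in Del-TM. CCNA2 and MAD2L1, both on chromosome 4, were higher by 0.43 and 0.45, while CDC20 was lower at -0.40. The other MAD2L1 probe gave -0.159, and that call was lost with the mean over kept probes (0.146, adjusted p = 0.201). Without chromosome 4 the counts were 7 higher and 6 lower of 43. Of 44 replication genes, 5 were higher (1 to 3 on leaving out any 1 untreated array) and 4 lower, a share of 20.5% that lay below the 36.5% over all genes. CDKN1A, the p21 inhibitor of cyclin-dependent kinases, read 7.79, 7.62 and 7.74 in Del and 8.68, 8.81 and 8.61 in Del-TM. Over the 28 targets of p53, 5 were higher and 10 lower.

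The targets of the study's drugs were measured in untreated cells as well. DNMT1, the maintenance methyltransferase, read 12.11, 11.98 and 12.07 in Del and 11.87, 11.88 and 11.72 in Del-TM, a difference of -0.23 (SE 0.0748, adjusted p = 0.0284). That call was lost without Del replicate 1 or 3 (adjusted p = 0.0892 and 0.0729) and without Del-TM replicate 3 (0.112). It was also lost with median scaling (0.122), with cyclic loess (0.0922) and on the 6 untreated arrays alone (0.054). DNMT3B, UHRF1 and HDAC1 differed by 0.01, -0.05 and 0.19 and did not pass the test, although HDAC1 did so under 7 of the alternatives (adjusted p from 0.0119 to 0.0446). Of 22 tumour suppressors known to be methylated in lung cancer, 9 were lower in Del-TM and 1 higher (2 higher without Del replicate 1 or Del-TM replicate 3), with a median of -0.089. Their share called was 45.5%, beside 36.5% over all genes, whose median was -0.0261. CADM1 read 7.02, 6.71 and 6.99 in Del and 5.56, 5.69 and 5.77 in Del-TM, and CDKN2B was lower at -1.20. CDKN2A and CEBPA differed by 0.09 and -0.10 (adjusted p = 0.446 and 0.526). Of 32 cancer-testis genes 3 were higher, 3 lower and 25 undetected in both sublines, and the share called was 18.8%. MAGEB2 was undetected in Del and at least 3.19-fold higher in Del-TM, although its other probe gave 0.40. Methylation was not measured.

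The differences were also set beside those between the treated sublines, which rest on the other 6 arrays. There 7455 genes (63.1%) were called. Of the 4310 genes that differed without drugs, 2855 were called in the same direction with them, 462 in the opposite direction and 993 were not called. Of the 434 genes that differed by at least 1 without drugs, 398 were called in the same direction with them, 11 in the opposite direction and 25 were not called. The line difference itself changed with treatment for 5029 of the 11808 genes (42.6%). CXCL5 kept a difference of 4.94 against 4.64 untreated, and LCN2 5.57 against 5.09. Among the larger changes, SERPINA3 stood at 0.88 with drugs against 2.88 without, and CXCL8 at 2.46 against 3.72. DEFB4A and IL1B went the other way, to 6.19 and 4.65. DEFB103A stood at -4.48, farther below 0 than its untreated -2.72.

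**Figure D4:**
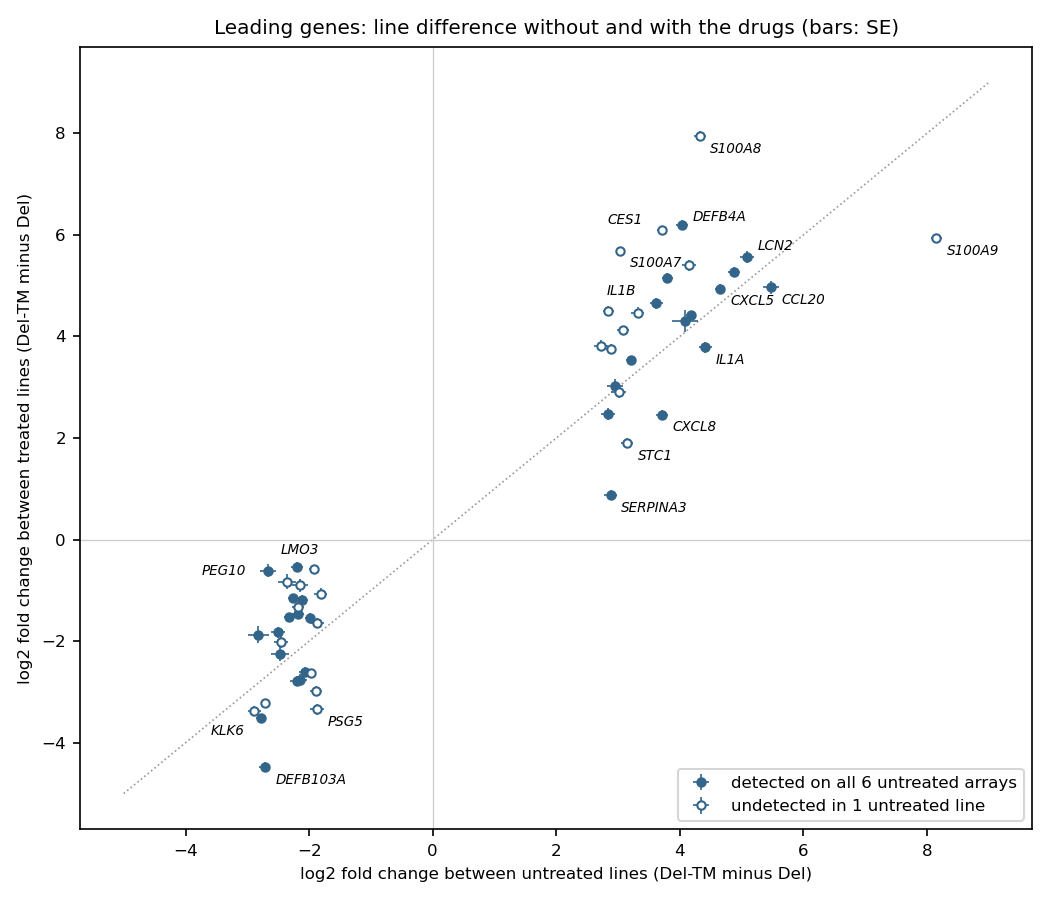
Log2 difference between the sublines without drugs (horizontal) and with drugs (vertical) for the 54 leading genes, with standard errors, where open points are genes undetected in 1 untreated subline, whose fitted values are not bounds, and the dotted line marks equal differences. All 54 points lie in the quadrants of equal sign, with DEFB4A above the line (6.19 with drugs) and CXCL8 below it (2.46).

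The differences were not spread evenly over the genome. For this description, made after the values were seen and without a test, 11791 genes were placed on 23 chromosomes by their RefSeq order and cut into 578 blocks of 20 neighbours. Chromosome 4 stood apart: its 409 genes had a median of 0.306, 54.8% of them were higher in Del-TM and 5.62% lower. On the other chromosomes the medians ran from -0.163 to 0.0286, and 9.76% to 22.8% of genes were higher. All 20 blocks of chromosome 4 had medians above 0, from 0.116 to 0.581. The middle 90% of all blocks lay between -0.177 and 0.177. Chromosome 4 held 11.7% of all genes higher in Del-TM. The treated sublines gave a median of 0.316 for it.

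Shorter stretches stood out as well. The first 20 genes of chromosome 5, from CCDC127 to NSUN2, had a median of 1.28, with 18 of 20 higher, and the next 20, from SRD5A1 to MTMR12, a median of 0.525. In the first block, SDHA read 10.02, 9.69 and 9.86 in Del and 10.88, 10.96 and 10.84 in Del-TM. CEP72, EXOC3 and BRD9, chosen after their values were seen, were higher by 1.63, 1.38 and 1.37. TERT, the telomerase subunit of the same block and chosen likewise, was undetected in Del and at least 1.6-fold higher in Del-TM. LPCAT1, an enzyme of surfactant lipids there, was higher by 1.30. The first block of chromosome 13, from MPHOSPH8 to CPAP, had a median of -0.525, with 17 of 20 lower, and holds FGF9. The last block of chromosome 19, the zinc finger genes ZNF416 to ZNF544, had a median of -0.418, with 12 of 20 lower. On chromosome 21, 39.0% of genes were lower, the highest share of any chromosome. DNA copy number was not measured in these cells.

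**Figure D5:**
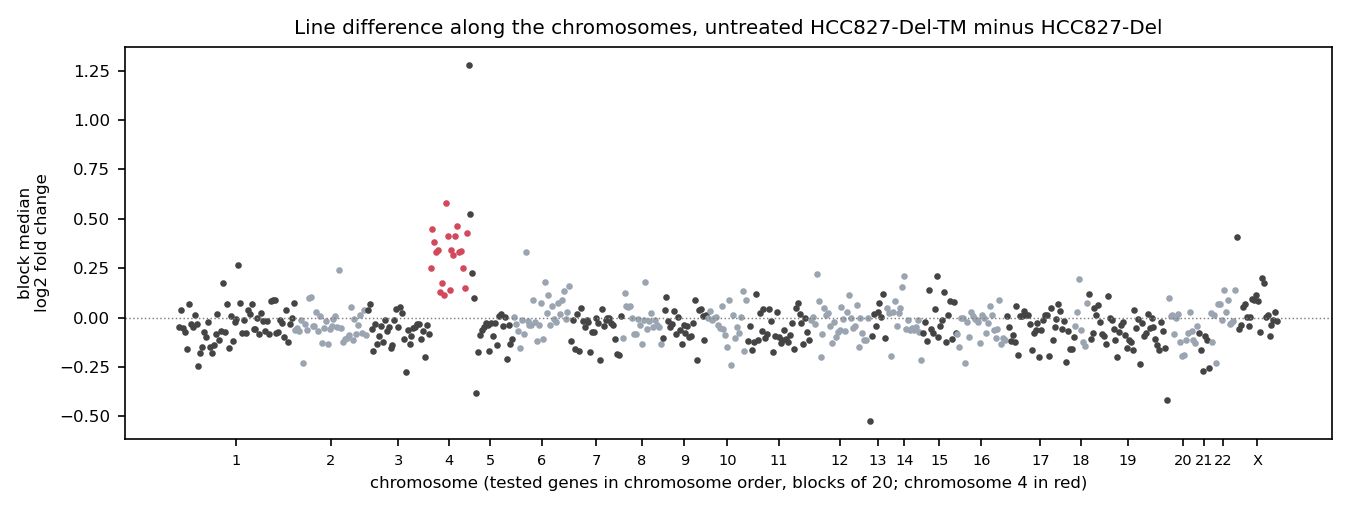
Median log2 difference between the untreated sublines for 578 blocks of 20 neighbouring tested genes, in chromosome order from 1 to X, with chromosome 4 in red. The chromosome 4 blocks lie between 0.116 and 0.581, the first block of chromosome 5 reaches 1.28, and most other blocks lie within 0.177 of 0.

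Without chromosome 4 and the first block of chromosome 5, 4045 of 11379 genes differed between the sublines.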

How the data were processed

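Labelled cRNA of 12 cultures went onto Illumina bead arrays with 1 colour, 3 biological replicates for each of 4 groups, per the labels. The authors deposited a probe intensity on a linear scale for each array, with median signals of 95.37 to 102.3, neither normalized between arrays nor background-subtracted. A detection p-value for each probe and array stood beside the intensity, per the file headers. The authors also deposited log2 values, quantile-normalized between the 12 arrays and without background subtraction, as the values show. The sources used here name no software for these steps. The log2 values computed here correlated with the deposited ones at r = 0.981 and served as an alternative.

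Signals were background-corrected from the detection p-values with nec (offset 16), quantile-normalized and put on a log2 scale in limma 3.58.1 (R 4.3.3). Of 47323 probes, 30113 had 1 gene symbol in the platform annotation, 8 had several and 17202 had none. The symbols of 30074 probes matched RefSeq by Entrez ID. Probes with a detection p under 0.01 on at least 3 of the 12 arrays were kept, and each of 11808 genes was represented by its probe with the highest mean. For 13 genes different probes were called in opposite directions. One coefficient per group was fitted over all 12 arrays (lmFit and eBayes, 8 residual degrees of freedom), and the Benjamini-Hochberg adjustment ran over all genes tested, two-sided, at 0.05. All p-values measure the spread between these arrays. No set test was made, and each of 52 gene lists was described by its counts and median.

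The members and lists were chosen with earlier results of these data known. The genes named were the 15 highest and 15 lowest detected on all 6 arrays, up to 12 per direction with the largest bounds, up to 8 called and 3 abundant uncalled members per list, all members of lists with up to 10 measured, and genes tied to the design. Names outside this rule are marked as chosen after their values were seen. A gene undetected on all arrays of 1 subline has only a bound. Promoters came from RefSeq (GRCh38.p14), and 9477 tested genes matched one. Same-numbered arrays of the sublines did not deviate together (correlations of -0.0092, 0.0036 and -0.00118), so the numbers were not taken as pairs. The scripts were tested on simulated data. Tables and figures used Python 3.11.15, pandas 2.3.3, numpy 2.4.6 and matplotlib 3.10.9.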

Additional observations from a re-analysis of the deposited data

Results flagged for a closer look

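Of 40 leading genes named, 34 had a line difference that itself changed with treatment (limma's test of the difference between the untreated and the treated line effect, adjusted p from 3.32e-10 to 0.046). Over all genes tested the share was 42.6%. The 40 were chosen for the size of their untreated difference or bound, and the test uses those untreated values again, so the count describes these genes only. Each value below is the untreated log2 difference minus the treated one. None of the 34, which had large untreated differences by choice, changed sign, and 17 were larger without drugs. With 3 arrays a group, no array was tested for standing apart from its group.

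Among inflammatory genes, the value was 0.51 for CCL20, 0.63 for IL1A, 1.26 for CXCL8, 2.00 for SERPINA3 and 2.22 for S100A9, all larger without drugs. It was -0.30 for CXCL5, -0.40 for FGG, -0.48 for LCN2, -1.03 for IL1B, -1.10 for TREM1, -1.35 for CHI3L2, -2.15 for DEFB4A, -2.66 for S100A7 and -3.62 for S100A8, all larger with drugs. S100A8 and S100A9, which form a pair of proteins, had values of opposite sign. The protease inhibitors PI3 and SERPINB4 gave -0.88 and -1.66, CES1 gave -2.39, ANGPTL4 -0.33 and STC1 1.26. For S100A9, S100A8, CES1, STC1, S100A7, PI3, SERPINB4 and TREM1, undetected in untreated Del, the untreated fitted value is not a bound.

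Among genes lower in Del-TM, a negative value means a difference that was wider without drugs. It was -0.44 for ALDOC, -0.68 for RGCC, -0.72 for IFIT1, -0.79 for NRG1, -0.92 for SNAI2, -0.95 for MAP1LC3C, -1.11 for IFI27, -1.67 for LMO3 and -2.05 for PEG10. AMOT and NR2F1, undetected in untreated Del-TM, gave -0.45 and -0.86. The value was positive for KLK6 (0.73) and DEFB103A (1.76), and for DKK3 (0.49) and FST (0.51), which were undetected in untreated Del-TM, so these differed more with drugs.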

How the results depend on the processing

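Across 26 alternatives, 192 of 198 summary counts stayed within 1.5 times their value. The exceptions were 1218 genes higher with median scaling (1914 as reported), 180, 181 and 282 genes with a difference of at least 1 without background correction, with the authors' log2 values and with detection on all 12 arrays (434 as reported), and 2869 called and 1582 lower at an adjusted p under 0.01 (4310 and 2396 as reported). Leaving out 1 array at a time gave 3678 to 4313 genes called, 1618 to 1918 higher, 2047 to 2395 lower, 426 to 438 with a difference of at least 1, 6623 to 7477 between the treated sublines, 4327 to 4787 for the change of the difference, 22 to 26 lists with more members higher than lower, and 236 to 288 genes with a bound. The lowest count of calls came without Del-TM control replicate 2. The replicate block gave 4226 genes called, and of the genes named it ended the call of CHUK (adjusted p = 0.0572). Median scaling moved the median of all genes by -0.0464 and the share of calls that were higher from 44.4% to 35.4%. Of 5839 values of 246 named genes, 5778 kept their side of the threshold, with the same direction where called, while 22 lost and 37 gained a call. The other 2 came with the mean over a gene's kept probes: EGFR (0.242, adjusted p = 0.00687) and ERBB3 (0.202, adjusted p = 0.0387). Both were called there, whereas their tested probes lay near 0 (-0.0106 and -0.00941) and were not called. Counts without chromosome 4 and the first 20 tested genes of chromosome 5 were added after seeing the data. A chip block was not run, since neither headers nor labels give a chip. Genes undetected in 1 subline have only bounds, so signal over background limits their values.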

Other observations

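Genes of metal handling leaned towards Del-TM, with 7 of 13 metallothioneins and zinc carriers higher and 1 lower, and a median of 0.236 (4 higher without Del replicate 3, without Del-TM replicate 1 or with median scaling). The zinc importer SLC39A8, on chromosome 4, was higher by 0.87. MT1F read 8.61, 8.51 and 8.50 in Del and 9.23, 9.03 and 9.27 in Del-TM, and SLC30A1, a zinc exporter, was higher by 0.46. MT1E alone was lower, at 6.68, 6.46 and 6.74 in Del and 6.02, 6.01 and 6.40 in Del-TM. Metallothionein genes are near-identical, so their probes may read each other's transcripts. Targets of NRF2, the factor of the oxidative stress response, differed about as often as genes as a whole, a share of 41% beside 36.5%. Of 39, 8 were higher and 8 lower (4 lower without Del-TM replicate 1, 5 lower without Del replicate 2 or 3, and 4 higher and 5 lower with median scaling). ABCC3, an exporter of conjugates, was higher by 1.03 (SE 0.0645, adjusted p = 2.57e-08), and TXNRD1, thioredoxin reductase, by 0.44. GSTK1, a mitochondrial glutathione transferase, was lower at -0.91. Genes of drug, retinoid and carbonyl metabolism differed more often than genes as a whole, 12 of 34 higher and 15 lower, a share of 79.4% beside 36.5%. CRABP2, which carries retinoic acid, read 9.37, 9.30 and 9.47 in Del and 10.80, 10.83 and 10.81 in Del-TM. AKR1B10, a carbonyl reductase, was lower at -1.14, EPHX2, an epoxide hydrolase, at -1.21 and CYP2S1, a cytochrome P450, at -1.01. PLAAT4, a retinoid-inducible phospholipase, was lower at -1.05.

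Extracellular proteases and the plasminogen system differed in both directions, 9 of 32 higher and 10 lower. PLAUR, the urokinase receptor, was higher by 0.90 and CTSD, a lysosomal protease, by 1.03. PLAU, urokinase itself, read 11.83, 11.76 and 11.68 in Del and 11.98, 12.08 and 11.79 in Del-TM (adjusted p = 0.0805). It passed the test under 5 of the alternatives (adjusted p from 0.021 to 0.032). PRSS23 was lower at -1.35 and TIMP2, an inhibitor of metalloproteinases, at -0.96. Of 21 squamous and cornified envelope genes, 5 were higher (3 without Del replicate 1 or Del-TM replicate 1) and 6 lower. SPRR3, a precursor of the envelope, was undetected in Del-TM and at least 1.4-fold higher in Del. EVPL and PPL, also proteins of the envelope, were lower at -0.45 and -0.77. Among 63 lineage transcription factors, 11 were higher and 19 lower. EHF, an epithelial ETS factor, read 5.92, 6.35 and 6.25 in Del and 7.54, 7.63 and 7.51 in Del-TM, and FOXQ1 was undetected in Del and at least 2.25-fold higher in Del-TM. FOXA1 and ELF3, abundant epithelial factors, differed by 0.19 and 0.12 and did not pass the test. FOXA1 did pass under 6 of the alternatives (adjusted p from 0.0136 to 0.0488). Of 30 apoptosis regulators, 7 were higher and 4 lower (3 higher with median scaling), a share of 36.7% beside 36.5% over all genes. CASP8, the caspase of death receptors, was higher by 0.89 and the receptor TNFRSF1A by 0.69, while BCL2L1, which blocks apoptosis, was lower at -0.68 and BAX, which promotes it, at -0.41. The other BAX probe gave 0.127, and the BAX call was lost with the mean over kept probes (-0.144, adjusted p = 0.196).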
